A study of Rattus norvegicus with 12 samples.

Results

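Transcript levels of 9 transcription factors of the islet endocrine lineage, Mafa, Pdx1, Neurod1, Nkx6-1, Nkx2-2, Pax4, Pax6, Isl1 and Insm1, were compared between CRI-G1-RS and CRI-G1-RR cells. Every probe set of the Affymetrix Rat 230 2.0 array that the platform annotation gives to 1 of these genes alone was taken, which is 9 of 31099 probe sets and covers 8 of the 9 genes. Isl1 has 2 probe sets. No probe set carries Insm1, either alone or among several symbols, and it was not analysed here.

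The CRI-G1 line was derived from a transplantable rat islet cell tumour. CRI-G1-RS, rotenone sensitive, is a subclone that was isolated from the original clone, CRI-G1-RR, which is rotenone resistant. RNA came from 6 samples of CRI-G1-RS cells and 6 samples of CRI-G1-RR cells, none of them treated, all grown in DMEM with high glucose and serum, with 1 array per sample. The labels call the samples biological replicates from different passages that were collected as pairs of 1 sample per line, without saying that the sample numbers mark the pairs, and the lines were compared without pairing. Each group is 1 clone sampled several times and p-values measure the spread between passages of 1 clone, not between independently derived lines.

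In the developing pancreas, Pdx1 marks the progenitor field, and a cascade of basic helix-loop-helix, homeodomain and paired-domain factors then turns progenitors into hormone-producing endocrine cells. Mature beta cells keep Pdx1, Nkx6-1, Nkx2-2, Neurod1, Pax6, Isl1 and Mafa, and several of these bind the insulin promoter: Neurod1 with its E-protein partners binds E-boxes, letters CANNTG, Pdx1 binds A-boxes with a TAAT core, and Mafa binds the C1 element. Pax4 acts mainly in the embryonic endocrine progenitor, where in mice it favours the beta and delta fates over the alpha fate. Isl1 and Pax6 are found in all islet endocrine cell types.

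Because several of the factors are known to bind the insulin promoters and those of each other, the 250 bases before the start site of 3 of the members that differed between the lines and of both insulin genes are shown, from RefSeq on build GRCr8, with each CANNTG and TAATTA in capitals. The windows of Nkx2-2, Pax4 and Pax6, which also differed, hold neither and are not shown. The table of promoters held 7 of the 9 factors, and Mafa and Insm1 were not matched. Each window lies before the start of a single transcript. The insulin genes and the letters CATCTG were added with the results known.

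Pdx1 (chr12:12799157-12799406, minus strand): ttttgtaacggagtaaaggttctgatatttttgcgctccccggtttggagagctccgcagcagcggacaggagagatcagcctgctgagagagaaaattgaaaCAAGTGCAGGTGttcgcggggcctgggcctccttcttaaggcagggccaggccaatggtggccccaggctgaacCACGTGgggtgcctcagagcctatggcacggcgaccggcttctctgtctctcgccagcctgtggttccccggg
Neurod1 (chr3:84770455-84770704, minus strand): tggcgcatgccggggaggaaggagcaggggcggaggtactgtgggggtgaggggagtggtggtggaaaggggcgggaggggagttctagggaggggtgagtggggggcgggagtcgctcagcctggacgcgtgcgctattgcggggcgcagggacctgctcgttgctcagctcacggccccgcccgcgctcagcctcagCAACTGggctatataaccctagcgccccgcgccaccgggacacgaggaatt
Nkx6-1 (chr14:8273988-8274237, plus strand): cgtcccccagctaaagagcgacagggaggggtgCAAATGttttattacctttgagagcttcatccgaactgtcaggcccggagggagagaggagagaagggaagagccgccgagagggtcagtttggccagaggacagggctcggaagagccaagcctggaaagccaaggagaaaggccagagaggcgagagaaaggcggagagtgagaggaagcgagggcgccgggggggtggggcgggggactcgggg
Ins2 (chr1:207273806-207274055, minus strand): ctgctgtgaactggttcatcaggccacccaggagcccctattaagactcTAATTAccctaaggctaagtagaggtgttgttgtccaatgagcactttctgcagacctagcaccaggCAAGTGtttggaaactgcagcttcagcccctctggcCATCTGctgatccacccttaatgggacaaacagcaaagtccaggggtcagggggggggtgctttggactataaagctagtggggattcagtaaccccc
Ins1 (chr1:261185869-261186118, plus strand): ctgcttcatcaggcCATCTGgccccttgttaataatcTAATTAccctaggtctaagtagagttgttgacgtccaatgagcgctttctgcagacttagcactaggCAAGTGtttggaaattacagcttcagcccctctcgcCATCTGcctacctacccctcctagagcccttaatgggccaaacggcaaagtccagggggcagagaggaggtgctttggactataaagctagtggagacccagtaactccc

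Pdx1 held 3 CANNTG matches, a pair of which lie side by side, while Neurod1, Nkx6-1 and Isl1 held 1 each and Nkx2-2, Pax4 and Pax6 held 0. Ins1 held 3 matches and Ins2 held 2. Both strands were searched, and among the 33469 promoters listed for the rat genome, 65.5% held at least 1 CANNTG. The letters TAATTA stood once in each insulin promoter and in none of the 7 factor promoters, against 4.86% of all promoters. The E-box spelled CATCTG, a subset of CANNTG, stood 2 times in Ins1, 1 time in Ins2 and in none of the 7 factors (14.0% of all promoters), and TATAAA was likewise found in the Ins1 and Ins2 windows and in no factor's (12.9% of all promoters). The letters TGCTGAC, part of a Maf recognition element, were found in none of the 9 windows (3.53% of all promoters). These are counts of letters in short windows, not binding sites.

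Expression was read as linear signal intensities that had been scaled so that the mean after trimming 2% at each end was about 250 on every array. Correlations between arrays were 0.979 to 0.987 within the CRI-G1-RS line, 0.980 to 0.987 within the CRI-G1-RR line and 0.952 to 0.965 across the lines. Changes are log2 fold changes of the normalized signal plus 16, CRI-G1-RS minus CRI-G1-RR, tested by limma with Benjamini-Hochberg adjustment over all 31099 probe sets. The arrays measured mixed RNA of whole cultures, in which fewer cells expressing a gene and less RNA per cell cannot be told apart. Of all probe sets, 5083 (16.3%) were higher in CRI-G1-RS cells and 4777 (15.4%) were lower, with a median change of 0.01.

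Of the 9 factor probe sets, 6 were higher in CRI-G1-RS cells (Mafa, Pax4, Nkx6-1, Pdx1, Neurod1 and Nkx2-2) and 1 was lower (Pax6), while neither Isl1 probe set passed the test. Their median change was 0.90. The factors were chosen with earlier results of these data known, so the count and median are no test of them as a group. For the 7 that passed, the signals of all 6 CRI-G1-RS arrays lay on 1 side of all 6 CRI-G1-RR arrays, as was the case for 20.3% of all probe sets. An exact permutation test over arrays gave 0.00216 for each of these 7, the smallest two-sided p that 6 arrays against 6 can give. Any probe set whose normalized values do not overlap gives this p, so it adds nothing to the separation.

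**Figure D1:**
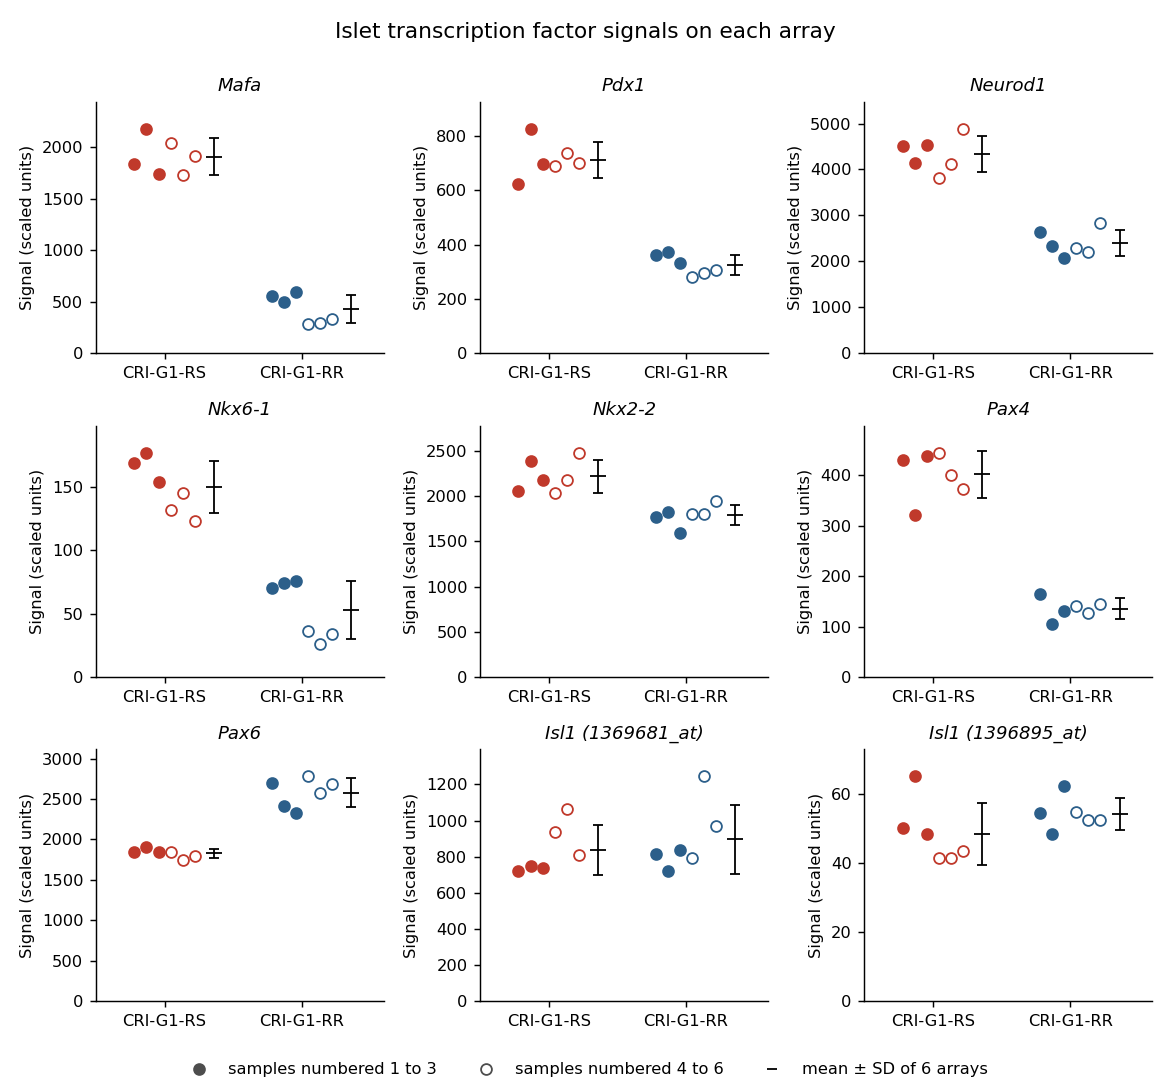
Signals of the 9 probe sets, each point 1 array, in CRI-G1-RS (left) and CRI-G1-RR (right) cells; filled points are samples numbered 1 to 3, open points samples numbered 4 to 6, and bars the mean ± SD of 6 arrays on a linear axis from 0. The lines do not overlap in 7 panels, and within CRI-G1-RR the open points of Mafa and Nkx6-1 lie below the filled ones.

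Mafa (probe set 1384460_at), a basic leucine zipper activator of insulin transcription that appears late in beta cell maturation, had the largest change of the 9 probe sets. Its signals were 1837, 2181, 1739.9, 2042, 1732 and 1917 in CRI-G1-RS samples 1 to 6, against 555, 498, 590.5, 283, 296 and 337 in CRI-G1-RR samples 1 to 6. The lowest CRI-G1-RS array stood 1141 units above the highest CRI-G1-RR array. The means were 1908 ± 177 and 426 ± 137 (SD, n = 6 each), a ratio of 4.47. The log2 fold change was 2.17 (SE 0.18, adjusted p = 9.48e-07), which ranked 121 by size among all 31099 probe sets.

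Pdx1 (probe set 1369516_at), the homeodomain factor that pancreas formation and insulin transcription require, was a little more than 2 times as high in the CRI-G1-RS line. It gave 624, 828, 698, 689.8, 736 and 700.2 in CRI-G1-RS samples, against 360.4, 373, 333, 282, 295 and 307 in CRI-G1-RR samples. No array of one line came near the other, the gap being 251 units. The mean was 713 ± 67.0 in CRI-G1-RS cells and 325 ± 36.7 in CRI-G1-RR cells, a ratio of 2.19, and the log2 fold change was 1.09 (SE 0.08, adjusted p = 5.52e-07).

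Neurod1 (probe set 1387288_at), a basic helix-loop-helix activator of the insulin gene and of endocrine differentiation, was higher by less than a doubling. Its signals were 4515, 4141, 4533, 3813, 4115 and 4891 in CRI-G1-RS cells, against 2649.6, 2336, 2073, 2286, 2212 and 2844 in CRI-G1-RR cells. Sample 6 was the highest in both lines, and the lines did not overlap. The mean was 4335 ± 384 in CRI-G1-RS cells and 2400.1 ± 289.5 in CRI-G1-RR cells (ratio 1.81), with a log2 fold change of 0.90 (SE 0.09, adjusted p = 4.63e-06).

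Nkx6-1 (probe set 1368998_at), a homeodomain repressor that keeps beta cells from taking other islet fates, was dim in the CRI-G1-RR line and nearly 3 times as high in the CRI-G1-RS line. Its signals were 168, 177, 153, 132, 145 and 123 in CRI-G1-RS samples, against 70.6, 74.1, 75.9, 36.1, 26.3 and 33.8 in CRI-G1-RR samples. Samples 4 to 6 were the 3 lowest of each line. The mean was 149.8 ± 20.8 in CRI-G1-RS cells and 52.8 ± 23.0 in CRI-G1-RR cells, a ratio of 2.84. The log2 fold change of 1.31 (SE 0.19, adjusted p = 1.20e-04) is lowered by the 16 units added before the logarithm.

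Nkx2-2 (probe set 1385387_at), a homeodomain factor needed for beta cell identity that acts upstream of Nkx6-1, was bright in both lines and differed little. It measured 2059.9, 2382, 2175, 2031, 2177 and 2481 in CRI-G1-RS samples, against 1772, 1827, 1598, 1797, 1803 and 1947 in CRI-G1-RR samples. Only 84.0 units separated the nearest arrays of the lines. The mean was 2218 ± 179 in CRI-G1-RS cells and 1791 ± 113 in CRI-G1-RR cells, a ratio of 1.24, and the log2 fold change was 0.33 (SE 0.06, adjusted p = 0.00111). With 3 samples per line the same size of change did not pass, at 0.35 (adjusted p = 0.0655) in samples 1 to 3 and 0.31 (adjusted p = 0.0738) in samples 4 to 6.

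Both paired-domain factors passed the test, in opposite directions. Pax4 (probe set 1370140_a_at), a repressor of the endocrine progenitor stage, gave 429.7, 322, 439, 445, 401 and 373 in CRI-G1-RS samples, against 166, 105, 131, 141, 128 and 145 in CRI-G1-RR samples. Sample 2 was the lowest in each line, and even there the CRI-G1-RS value was far above every CRI-G1-RR value. The mean was 402 ± 47.3 in CRI-G1-RS cells and 136 ± 20.2 in CRI-G1-RR cells (ratio 2.96), with a log2 fold change of 1.45 (SE 0.10, adjusted p = 3.17e-07).

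Pax6 (probe set 1369242_at), an activator of glucagon, insulin and somatostatin transcription, was the only one of the 9 probe sets that passed as lower over all 12 arrays. It measured 1841, 1910.5, 1839.6, 1847, 1751 and 1790.0 in CRI-G1-RS samples, against 2702, 2419, 2326, 2779, 2574 and 2682 in CRI-G1-RR samples. The 6 CRI-G1-RS arrays were nearly level, with a coefficient of variation of 2.97%, and CRI-G1-RR arrays varied by 6.83%. The mean was 1829.9 ± 54.3 in CRI-G1-RS cells and 2580.4 ± 176 in CRI-G1-RR cells, a ratio of 0.709, and the log2 fold change was -0.46 (SE 0.05, adjusted p = 2.52e-05).

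Isl1, a LIM homeodomain factor of islet and neural cells, overlapped between the lines on both of its probe sets. The brighter probe set (1369681_at) gave 721, 749.5, 735, 936, 1067 and 812 in CRI-G1-RS samples, against 814, 720.1, 836, 792, 1244 and 971 in CRI-G1-RR samples. Sample 5 was the highest of each line. The mean was 837 ± 138 in CRI-G1-RS cells and 896 ± 189 in CRI-G1-RR cells. The log2 difference was -0.09 (adjusted p = 0.694, exact permutation p = 0.565), with a 95% interval of -0.38 to 0.21 that spans changes in either direction.

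The dimmer Isl1 probe set (1396895_at) measured 50.3, 65.1, 48.5, 41.4, 41.6 and 43.4 in CRI-G1-RS samples, against 54.5, 48.3, 62.3, 54.8, 52.5 and 52.4 in CRI-G1-RR samples. Sample 2 of CRI-G1-RS cells stood above the rest of its line. The log2 difference was -0.15 (95% interval -0.33 to 0.03, adjusted p = 0.204), and without that array it was -0.21 (adjusted p = 0.0344). Signals of different probe sets depend on their probes, so the levels of the 2 cannot be set against each other.

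**Figure D2:**
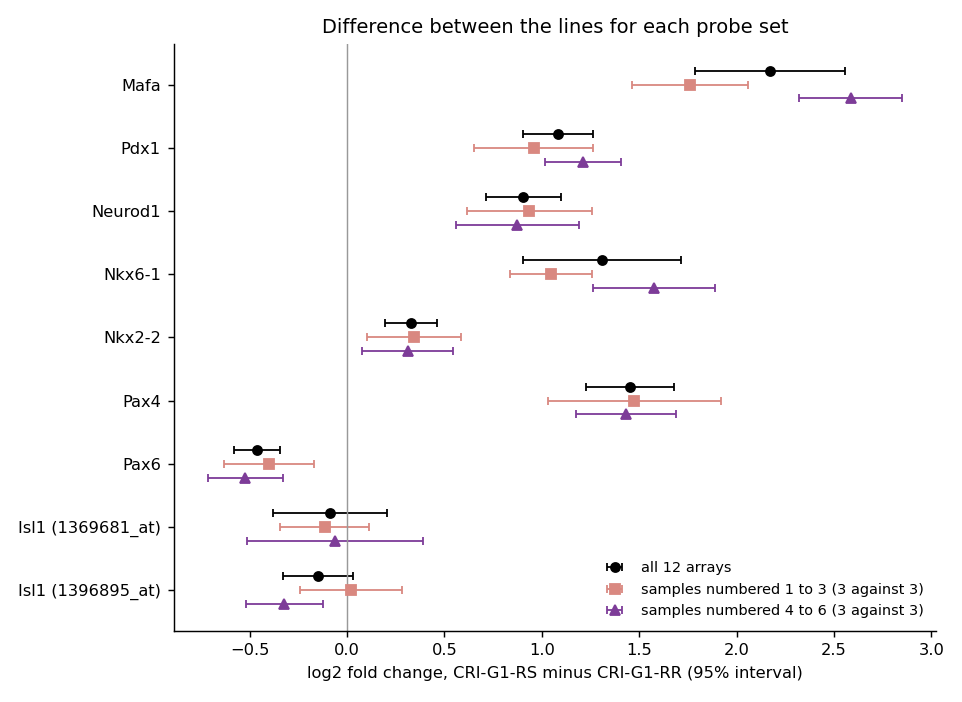
Log2 fold change, CRI-G1-RS minus CRI-G1-RR, of each probe set with its 95% interval, over all 12 arrays (black), over samples numbered 1 to 3 (squares) and over samples numbered 4 to 6 (triangles). The changes run between 2.17 for Mafa and -0.46 for Pax6, and those of Mafa and Nkx6-1 are larger in samples 4 to 6 than in samples 1 to 3.

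The spread within a line was uneven among the factors. Over the 18485 probe sets with a mean signal of at least 50, the median within-line SD was 0.16 on the log2 scale. Nkx6-1 stood at percentile 95.9 of this spread and Mafa at 94.8, while Pax6 stood at percentile 5.63 and Nkx2-2 at 13.4. The spread of Mafa and Nkx6-1 was mostly within the CRI-G1-RR line, with coefficients of variation of 9.28% and 13.9% for Mafa and Nkx6-1 in CRI-G1-RS cells, against 32.2% and 43.6% in CRI-G1-RR cells.

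Samples numbered 1 to 3 were also set against those numbered 4 to 6 within each line. The split was made by number, with earlier results of these data known. The numbers come from the sample titles, and no label says that they mark an order of passages or a batch, so they are called numbers only. Within CRI-G1-RR cells, Nkx6-1 measured 73.6 ± 2.68 in samples 1 to 3 and 32.1 ± 5.13 in samples 4 to 6 (SD, n = 3 each). The log2 difference was 0.82 (SE 0.11, adjusted p = 0.0336 by limma), which makes it 1 of 14 probe sets (0.045%) that passed in that comparison. With 1 in place of 16 added to the signal, the difference was 1.07 and did not pass (adjusted p = 0.0501).

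Mafa measured 548 ± 46.8 in CRI-G1-RR samples 1 to 3 and 305 ± 28.5 in samples 4 to 6, again with no overlap. The log2 difference was 0.80 (SE 0.12) but did not pass (adjusted p = 0.0577). Pdx1 gave 355 ± 20.8 and 295 ± 12.7 in the same samples, a difference of 0.24 (adjusted p = 0.678) without overlap. In all 3 factors the arrays of CRI-G1-RR samples 4 to 6 were the lower ones. The remaining factor probe sets overlapped, with differences from -0.30 to -0.002. Only these 3 factors had an unadjusted p under 0.05 by limma, as did 2242 of all probe sets (7.21%). How many of all probe sets separate samples 1 to 3 from 4 to 6 without overlap was not counted in either line. The lack of overlap alone therefore carries little weight.

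Within CRI-G1-RS cells, none of the 9 probe sets passed, in a comparison in which limma called 0 of 31099 probe sets (0%) and 1632 had an unadjusted p under 0.05, among them 3 of the 9 (Nkx6-1 and both Isl1 probe sets). Nkx6-1 gave 166 ± 11.8 in CRI-G1-RS samples 1 to 3 and 133 ± 11.3 in samples 4 to 6, without overlap (log2 difference 0.30, adjusted p = 0.938). Mafa gave 1919 ± 232 and 1897 ± 156, a difference of 0.00 with a 95% interval of -0.26 to 0.26. The brighter Isl1 probe set ran the other way in both lines, with differences of -0.35 in CRI-G1-RS cells and -0.30 in CRI-G1-RR cells, neither of which passed (adjusted p = 0.938 and 0.747). The dimmer Isl1 probe set went the opposite way in the same CRI-G1-RS arrays, with 54.6 ± 9.12 in samples 1 to 3 and 42.1 ± 1.11 in samples 4 to 6, without overlap (0.28, adjusted p = 0.938).

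The CRI-G1-RR difference minus the CRI-G1-RS difference, a contrast chosen after the values were seen, was 0.80 for Mafa (adjusted p = 0.354) and 0.52 for Nkx6-1 (adjusted p = 0.651). Only 4 probe sets of the array passed that contrast, so the lines were not shown to differ in this respect. The line difference itself was present within both sets of numbers. For Mafa the log2 fold change, CRI-G1-RS minus CRI-G1-RR, was 1.76 in samples 1 to 3 and 2.59 in samples 4 to 6, and for Nkx6-1 it was 1.05 and 1.58, all with adjusted p of 0.00107 or less.

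**Figure D3:**
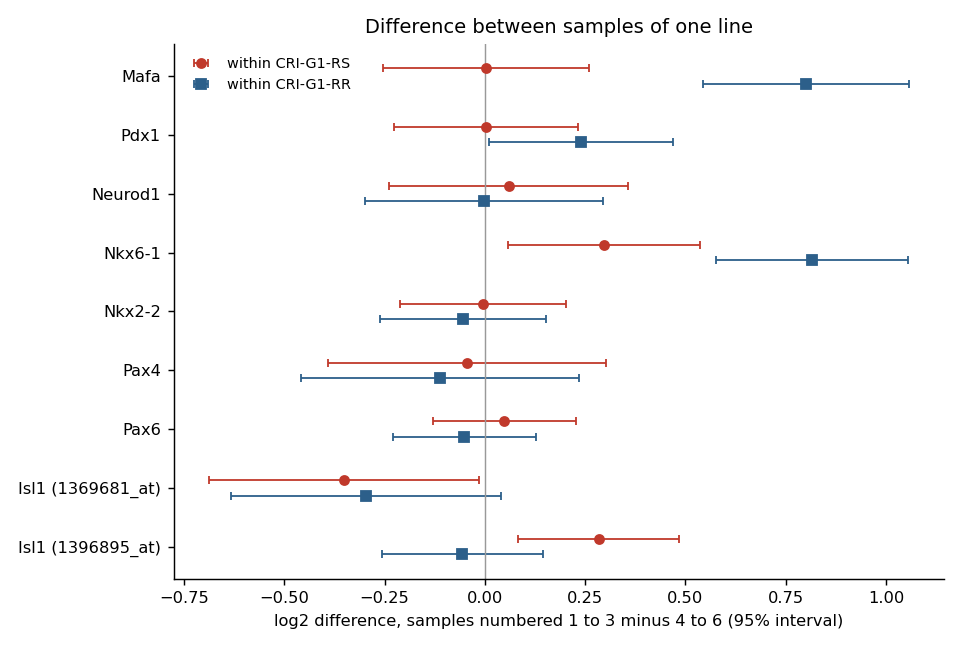
Log2 difference of samples numbered 1 to 3 minus samples numbered 4 to 6, with 95% intervals, within CRI-G1-RS cells (circles) and within CRI-G1-RR cells (squares). Mafa (0.80) and Nkx6-1 (0.82) in CRI-G1-RR cells lie apart from the other values, and Mafa in CRI-G1-RS cells lies at 0.00.

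Other factors of the same programme were counted by list, each gene by its brightest probe set, beside all 14218 genes, of which 2979 passed as higher and 2601 as lower in the CRI-G1-RS line (39.2% called, median change 0.02). Of 13 measured endocrine specification factors, 6 passed as higher and 0 as lower in the CRI-G1-RS line, with a median of 0.29. Neurod2, a relative of Neurod1, measured 594 ± 69.9 in CRI-G1-RS cells and 283 ± 79.8 in CRI-G1-RR cells (log2 fold change 1.06, adjusted p = 2.79e-04). Mlxipl, the glucose-responsive factor ChREBP, changed by 0.63, and the zinc finger factors St18 and Myt1 by 0.53 and 0.46. Neurog3, which starts the endocrine programme and activates Neurod1 and Pax4, was dim in both lines at 31.3 ± 15.3 in CRI-G1-RS cells and 18.1 ± 7.67 in CRI-G1-RR cells (adjusted p = 0.159).

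Among 9 factors of the alpha, delta and other islet lineages, 1 was higher and 3 were lower (median -0.35), while with the probe set of smallest p for each gene 2 were higher and 2 lower (median -0.21). Irx2, an Iroquois homeodomain factor of alpha cells, had 71.7 ± 12.8 in CRI-G1-RS cells and 198 ± 39.7 in CRI-G1-RR cells (log2 fold change -1.30, adjusted p = 1.16e-05). Foxp2 and Foxp1, forkhead factors of alpha cells, changed by -0.37 and -0.35, and Pou3f4, a POU homeodomain factor of alpha cells, changed by 0.31.

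Progenitor and endoderm factors gave 2 higher and 6 lower of 17 (median -0.10). Hnf4a, a nuclear receptor of liver, gut and beta cells, had the largest change, with 61.0 ± 14.3 in CRI-G1-RS cells and 643 ± 53.5 in CRI-G1-RR cells (log2 fold change -3.13, adjusted p = 2.59e-09). Meis2, a homeodomain cofactor, changed by -1.41 and Onecut1, a duct and progenitor factor, by -0.77. Tcf7l2, an effector of Wnt signalling, was dim in both lines, with 5.97 ± 3.99 in CRI-G1-RS cells and 41.9 ± 21.4 in CRI-G1-RR cells. Its change of -1.31 depends on the 16 units added, and the lines overlapped, at 3.57 to 14.0 in CRI-G1-RS and 9.18 to 65.5 in CRI-G1-RR cells. Cdx2, an intestinal homeodomain factor, changed by 0.59 and Rbpj, the DNA-binding partner of Notch, by 0.23.

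Proteins that bind the 9 factors or share their DNA partners changed in both directions, 11 higher and 10 lower of 32 (median 0.07). Ldb1, the adaptor through which LIM homeodomain factors such as Isl1 assemble, measured 569 ± 77.1 in CRI-G1-RS cells and 270 ± 22.6 in CRI-G1-RR cells (log2 fold change 1.01, adjusted p = 2.10e-06). Its relative Ldb2 went the other way, with 35.2 ± 4.65 in CRI-G1-RS cells and 134 ± 16.3 in CRI-G1-RR cells (-1.56), and Lmo4, a LIM-only protein that binds the same adaptors, changed by -0.58. Rcor2, a corepressor scaffold related to that through which Insm1 acts, measured 216 ± 57.0 in CRI-G1-RS cells and 19.1 ± 6.03 in CRI-G1-RR cells (log2 fold change 2.70, adjusted p = 8.88e-08). Dnmt3a, a DNA methyltransferase that Nkx2-2 recruits in mouse beta cells, changed by 0.98, and Maf, a relative of Mafa, by 0.81. Id4 and Id2, helix-loop-helix proteins without a DNA-binding domain that take E-proteins away from factors such as Neurod1, changed by -1.35 and -0.95. Of the E-proteins themselves, Tcf12 passed as lower (-0.39), and Tcf4 (0.20) and Tcf3 (-0.32) did not pass. Pbx3, a homeodomain partner of Pdx1-type factors, changed by -0.59, while its relative Pbx2 changed by 0.65.

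Of 27 beta cell effector genes, many of them targets of the 9 factors, 9 were higher and 5 lower (median 0.07). Ins2 had 1760 ± 173 in CRI-G1-RS cells and 722 ± 206 in CRI-G1-RR cells, a log2 fold change of 1.30 (adjusted p = 2.97e-05). Ins1 had 6495 ± 978 in CRI-G1-RS cells and 7118 ± 309 in CRI-G1-RR cells, a change of -0.06 (adjusted p = 0.408). The paper, with another normalization of the arrays, reports the same Ins1 probe set as higher in CRI-G1-RS cells, and more so by quantitative PCR. By quantitative PCR on separate samples it could not detect Ins2 in CRI-G1-RR cells, where the array signal was 722. The coding sequences of Ins1 and Ins2 are nearly identical, and how far each probe set takes up the other transcript is uncertain. Ero1b, an oxidase of the endoplasmic reticulum that serves proinsulin folding, changed by 2.16, Pcsk2, a prohormone convertase, by 0.97 and the G-protein subunit Gng12 by 0.56. Cltrn, a membrane protein of beta cells and kidney, changed by -1.55. Robo2, Nnat and Slc2a2 also passed as lower, with changes of -0.61, -0.60 and -0.51. Their signals were low, with means of 35.8, 11.2 and 1.64 in CRI-G1-RS cells and 62.8, 24.1 and 9.70 in CRI-G1-RR cells.

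The hormones of other islet and gut endocrine cells gave 2 higher and 2 lower of 14 (median 0.04). Gcg, a target of Pax6 and the defining hormone of alpha cells, was bright in both lines, with 6589 ± 576 in CRI-G1-RS cells and 7329 ± 362 in CRI-G1-RR cells (log2 fold change -0.07, adjusted p = 0.327). The highest signal of any probe set on any array was 11366. Whether signals as bright as those of Gcg and Ins1 still follow the amount of transcript was not tested. Sct, the secretin gene and a target of Neurod1 in the gut, measured 57.1 ± 10.1 in CRI-G1-RS cells and 1658 ± 352 in CRI-G1-RR cells (log2 fold change -4.50, adjusted p = 9.02e-11), opposite in direction to Neurod1. Cck, the cholecystokinin precursor, changed by -0.49. Penk, the enkephalin precursor, measured 122 ± 20 in CRI-G1-RS cells and was dim at 25.0 ± 18.5 in CRI-G1-RR cells (1.83). Ghrl, the ghrelin precursor, was dim in both lines, with 39.1 ± 12.7 in CRI-G1-RS cells and 12.8 ± 3.75 in CRI-G1-RR cells (0.91).

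**Figure D4:**
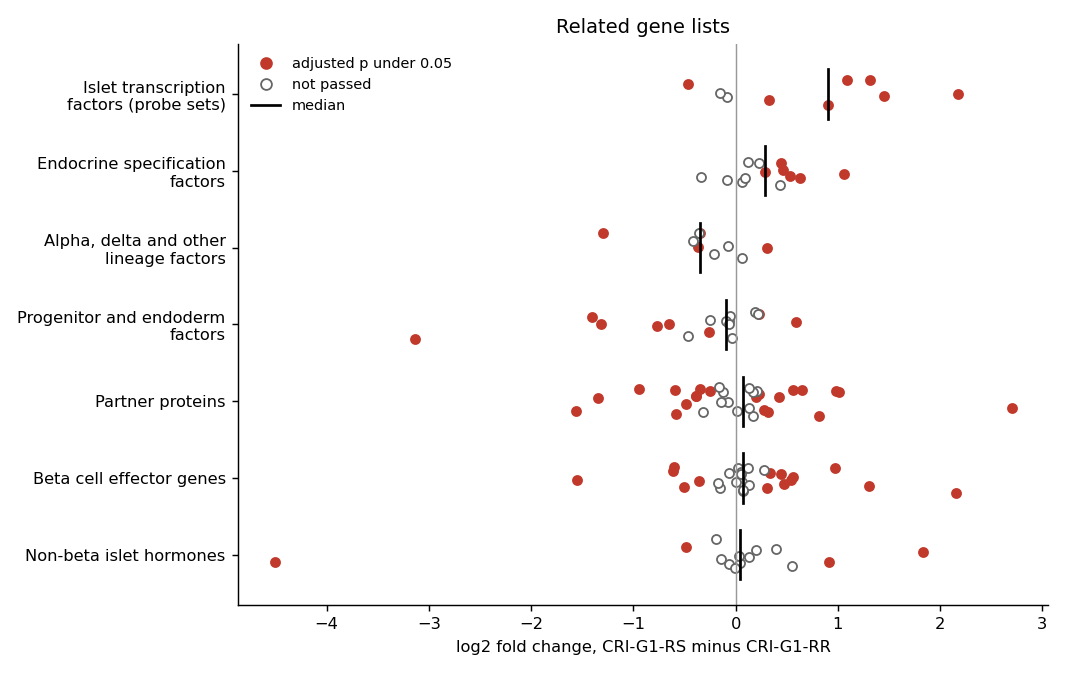
Log2 fold change, CRI-G1-RS minus CRI-G1-RR, of the 9 factor probe sets and of the genes of 6 related lists, each point 1 probe set or gene, filled where the adjusted p is under 0.05, with the median of each row as a black line. The factor probe sets have a median of 0.90, against -0.35 for factors of the alpha, delta and other lineages (-0.21 with the probe set of smallest p for each gene), and Sct lies farthest to the left at -4.50. Factors and lists were chosen with earlier results of these data known, and their medians were not tested against each other.

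Markers of cell types were read in the same arrays. Of 13 neuroendocrine markers 6 passed as higher and 2 as lower in the CRI-G1-RS line, and 12 had a mean signal of at least 50, with summed signals of 32165 to 37357 in CRI-G1-RS cells and 30134 to 36657 in CRI-G1-RR cells. Of 13 acinar markers 12 were below a mean signal of 50 and none passed in limma, and none of 7 immune markers passed (1 of each had an unadjusted p under 0.05). Of 11 fibroblast and endothelial markers 1 was higher, Pdgfra, a growth factor receptor (0.74). Among 11 duct and epithelial markers 5 were lower and 0 higher, and their summed signals of 9048 to 10732 in CRI-G1-RS cells lay below the 15180 to 19059 of CRI-G1-RR cells. Onecut1 was 1 of these 5, and the others were Krt8 (-0.96), Krt18 (-0.94), Epcam (-0.57) and Krt7 (-0.46), while the duct marker Krt19 was dim at 17.5 ± 8.61 in CRI-G1-RS cells and 32.2 ± 14.4 in CRI-G1-RR cells. The part of these epithelial genes in the changes of the factors was not tested.

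The genes beside each factor on GRCr8 were also read, a comparison chosen after earlier results were known. Of all 8678 genes with a position and a mean signal of at least 100, 28.6% passed as higher and 25.2% as lower in the CRI-G1-RS line. The median change of all 8678 was 0.03. Around Nkx6-1, on chromosome 14, 44 of the 50 nearest such genes were higher and 0 were lower, with a median change of 0.61, and the nearest, Cds1, changed by 1.22. Around Pdx1, on chromosome 12, 31 were higher and 7 lower with a median of 0.27, and the nearest, Cdx2, changed by 0.59. Around Mafa 3 were higher and 20 lower (median -0.22), and the nearest, Zc3h3, changed by 0.12. Around Pax6 6 were higher and 18 lower (median -0.10), and the nearest, Elp4, changed by 0.69. The counts were 18 higher and 10 lower around Neurod1 (median 0.07), 7 and 21 around Nkx2-2 (-0.14), 7 and 12 around Pax4 (0.03) and 8 and 25 around Isl1 (-0.22). The medians around Nkx6-1, Pdx1 and Pax6 thus had the sign of the factor's own change, and those around Mafa and Nkx2-2 the opposite sign. Around Pax4 and Neurod1 the medians lay close to that of all 8678 genes.

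For each factor the 3 other genes with the most similar pattern over the 12 arrays were picked out of 11087 probe sets by Pearson correlation, given here as a description, since the points fall into the 2 lines and share their arrays. For Mafa they were Olfm1, Alcam and Pde4dip (r of 0.995, 0.995 and 0.994, and 0.924, 0.924 and 0.922 after each line's mean was removed). For Nkx6-1 they were Nras, Ncs1 and Slc39a8 (r of 0.986, 0.984 and 0.980, and 0.947, 0.924 and 0.893 within lines). For Pdx1 they were Foxn3, Gpsm1 and Vav2, for Neurod1 Gpatch4, Zfp91 and Eml6, for Nkx2-2 Ncapd3, Cmss1 and Map1b, for Pax4 Dusp23, Cnot11 and Cdkn2d, and for Pax6 Tor1b, Dpf2 and Cnot2. For Isl1 they were led by Bloc1s6 (r = 0.927, and 0.931 within lines).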

How the data were processed

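Total RNA was labelled and hybridized to 12 Affymetrix Rat 230 2.0 arrays. The authors deposited 1 linear intensity for each probe set and array, and their processing notes name GCOS 1.4. Since the study's robust multi-chip averages were not used here, the deposited intensities were brought to equal quantiles across arrays, 16 was added, and log2 values were fitted with limma 3.58.1 (R 4.3.3) on all 31099 probe sets, with cell type as the only term, Benjamini-Hochberg adjustment and a threshold of 0.05, without a filter. Means and SDs are of the signals before quantile normalization. Samples numbered 1 to 3 and 4 to 6 were compared in 1 fit of 4 groups. With arrays, the number of samples sets the precision. The fit was tested on simulated data.

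Genes were named from the platform annotation, and lists use each gene's probe set of highest mean signal. The members, lists and comparisons were chosen with earlier results of these data known. All members were named. In each list up to 4 called genes of largest change per direction, with Ins1, Ins2 and Gcg, were eligible for naming. Neurog3, Krt19, Lmo4, Krt7, Pbx2, Tcf12, Tcf4 and Tcf3 were named after their values were seen. The alternatives were other normalizations, pseudocounts of 1 and 64, a filter at a mean signal of 50, leaving out cross-hybridising probe sets, a replicate block, an intensity trend, array weights, either set of 3 sample numbers, another probe set per gene and leaving out each array.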

Additional observations from a re-analysis of the deposited data

Results flagged for a closer look

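Among 18 groups of 6 arrays, 1 array stood apart from the rest of its group by Dixon's criterion: sample 2 of CRI-G1-RS cells on the dimmer Isl1 probe set (1396895_at), at a signal of 65.1, where the nearest of the other 5 arrays was at 50.3 and the gap was 0.627 of the range against a critical value of 0.625. Chance alone flags about 1 in 20 groups.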

How the results depend on the processing

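Each of the 9 line differences was recomputed under 23 alternatives. Mafa, Pdx1, Neurod1, Nkx6-1, Pax4 and Pax6 kept their direction and passed in all 23, with log2 fold changes of 1.76 to 2.59, 0.96 to 1.21, 0.83 to 0.95, 0.88 to 1.58, 1.21 to 1.55 and -0.52 to -0.40. Nkx2-2 lost its call only with 3 samples per line. With samples 4 to 6 alone, the dimmer Isl1 probe set passed (-0.32), giving 2 lower probe sets, and leaving out 1 array gave 1 to 2. Its direction turned to 0.019 in samples 1 to 3, and the brighter Isl1 probe set, at -0.16 to 0.0084 when 1 array was left out, turned without CRI-G1-RR sample 5, none of these turned values past the threshold. Between CRI-G1-RR samples 1 to 3 and 4 to 6, with the deposited scaling alone 2 factors passed, Mafa with an adjusted p of 0.0373, and the dimmer Isl1 probe set turned to 0.033, while with a pseudocount of 1 the count was 0 by limma (Nkx6-1 at 1.07, adjusted p = 0.0501). With the smallest p deciding the probe set, 1 endocrine specification factor was lower, 2 lineage factors were higher and 2 lower, and 2 fibroblast and endothelial markers were higher. Over all probe sets 9860 passed, against 5109 with samples 1 to 3 and 6269 with samples 4 to 6, where fewer arrays were fitted.

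With the replicate block, 6 factor probe sets were higher, 1 was lower and 9204 probe sets passed. The labels say that passages were paired across the lines but not that the number gives the pair, and same-numbered deviations correlated between -0.05 and 0.16, with 2 of 6 CRI-G1-RS samples closest to their own number. Dim signals, such as those of Nkx6-1 in CRI-G1-RR cells and of the second Isl1 probe set, limit what can be read, and no detection calls were used here.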
